A study of Canis lupus familiaris with 7 samples.

Results

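Heart muscle cells are joined end to end at the intercalated disc, and the genes described here encode 10 of its adhesion and coupling proteins: CTNNA3, CTNNA1, CTNNB1, JUP, CDH2, DSG2, DSC2, DSP, PKP2 and GJA1. On the array a gene is read by 1 or more probe sets, each a group of short probes for a transcript, and all those whose single gene symbol in the platform annotation is one of these names were taken. This gave 26 of the 43035 probe sets of the array, 7 for CTNNA3 and 19 for the other 9 genes, out of 15115 genes with a probe set of 1 symbol. CTNNA3 was chosen by its values in this same comparison, where 1 of its probe sets was low in the low-salt samples, and the others for their place in the same structure. The difference of CTNNA3 is therefore given as a description, with no p-value, and the values of the others are read beside those of the whole array.

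The samples are left ventricle RNA of adult male mongrel dogs on Affymetrix canine expression arrays, 1 array per sample. Low-salt samples (4, numbered 1 to 4) came from dogs fed a diet with 0.5% sodium chloride for 2 weeks, and control samples (3, numbered 1, 3 and 4) from control dogs whose diet is not stated in the labels. The design text counts 10 dogs on the diet but compares 4 with 3 controls, and how the 10 relate to the 4 arrays is not stated in the sources used here. The labels name no animals, so every p-value rests on the spread of these arrays, which may be technical. Arrays carry no read depth, and their number limits the precision.

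In an intercalated disc, adherens junctions anchor actin filaments, desmosomes anchor desmin filaments, and gap junctions pass current between cells. In the adherens junction the cadherin CDH2 binds β-catenin or plakoglobin inside the cell, and these bind an α-catenin that reaches actin. In the desmosome the cadherins DSG2 and DSC2 bind plakoglobin and plakophilin, which hold desmoplakin, and mutations of several of these human genes cause arrhythmogenic cardiomyopathy.

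Values are log2(signal + 16) after quantile normalization, and differences are low salt minus control on that scale, which understates changes of dim probe sets. Of the 26 probe sets 20 were bright enough to be tested with limma among 28616 over the whole array, by a mean over the 7 arrays above 5.004. In 3 of the 20, CfaAffx.20569.1.S1_at and CfaAffx.20508.1.S1_at of CTNNA3 and CfaAffx.27660.1.S1_at of DSG2, the mean of 1 group was under this limit. An adjusted p under 0.05 was reached by 1 of these 20, a CTNNA3 probe set, and by 0.346% of all probe sets tested (99, of which the 88 lower ones are 0.308%). The other 19 had no adjusted p under 0.05 in limma or in the methods' t-test. An unadjusted p under 0.05 was found for 1 of the 20 by limma, again that CTNNA3 probe set, for 2 of the 20 by the methods' t-test (CTNNA3 and JUP), where the shares of all tested were 11% by limma and 10% by the methods' t-test. The groups did not overlap in 2 of the 20, 1 each of CTNNA3 and JUP, and in 10.8% of all tested. Since the comparison took part in the choice of genes, nothing is read from these counts.

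αT-catenin, encoded by CTNNA3, is the α-catenin form found mainly in heart and testis, and it links the cadherin complex to actin and binds plakophilin 2. Its 7 probe sets did not behave alike. The probe set CfaAffx.20569.1.S1_at read 4.78, 4.57, 4.68 and 5.64 in low-salt samples 1 to 4, against 9.71, 8.22 and 6.61 in controls 1, 3 and 4. Every low-salt value lay below every control value, and the controls were far more spread than the low-salt samples. The means were 4.92 ± 0.49 in low salt (SD, n = 4) and 8.18 ± 1.55 in controls (SD, n = 3), a difference of -3.26 ± 0.56 (SE). The size of this difference depended on the offset, with -4.28 at an offset of 1 and -2.16 at an offset of 64, so no fold is given. In intensity as deposited, the low-salt values were 7.92, 4.99, 14.2 and 21.0, against 792, 284 and 108 in the controls. Among all probe sets of the same array, this one stood between the 23.6th and the 52.2nd percentile in low salt and between the 72.8th and the 93.5th percentile in controls. Its low-salt mean was under the limit for testing, so this probe set was tested through its control values. Its low-salt signal lay in the lower and middle part of the scale, and the highest control was 7.32 times the lowest.

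The brightest CTNNA3 probe set, CfaAffx.20508.1.S1_s_at, read 7.62, 7.19, 7.07 and 6.70 in low salt and 7.24, 7.63 and 7.33 in controls. These groups overlapped, and the difference was -0.25 ± 0.28 (SE, 95% interval -0.85 to 0.35). Probe set CfaAffx.20562.1.S1_s_at read 6.10, 6.63, 6.54 and 5.37 in low salt and 5.87, 6.63 and 6.36 in controls, a difference of -0.13 ± 0.36 (SE). By the array maker's naming, the ending _s_at marks probes that match more than 1 transcript, which may belong to the same gene.

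The remaining CTNNA3 probe sets were dimmer. CfaAffx.20562.1.S1_at read 6.29, 6.85, 5.27 and 5.94 in low salt and 6.12, 5.58 and 5.32 in controls, with a difference of 0.42 ± 0.39 (SE). CfaAffx.20512.1.S1_at read 4.37, 5.32, 5.77 and 5.52 in low salt and 6.32, 5.59 and 4.94 in controls, with a difference of -0.37 ± 0.44 (SE). CfaAffx.20508.1.S1_at read 5.30, 4.39, 5.10 and 5.09 in low salt and 6.33, 4.30 and 5.14 in controls, with a difference of -0.28 ± 0.47 (SE). The groups overlapped in all 3 of these. The seventh, CfaAffx.20488.1.S1_at, was too dim to be tested and differed by -0.06.

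Over the 5 tested CTNNA3 probe sets other than CfaAffx.20569.1.S1_at, differences ran from -0.37 to 0.42 with a median of -0.25. Their mean level was 5.92 ± 0.15 in low salt (SD, n = 4) and 6.04 ± 0.29 in controls (SD, n = 3), a difference of -0.12. With CfaAffx.20569.1.S1_at included, the mean of the 6 differed by -0.65. The files do not say which exons the probe sets read, so a transcript form cannot be named. The plot of the 7 CTNNA3 probe sets shows 1 with separate groups and 6 with overlapping ones, where 10.8% of all tested had separate groups.

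**Figure D1:**
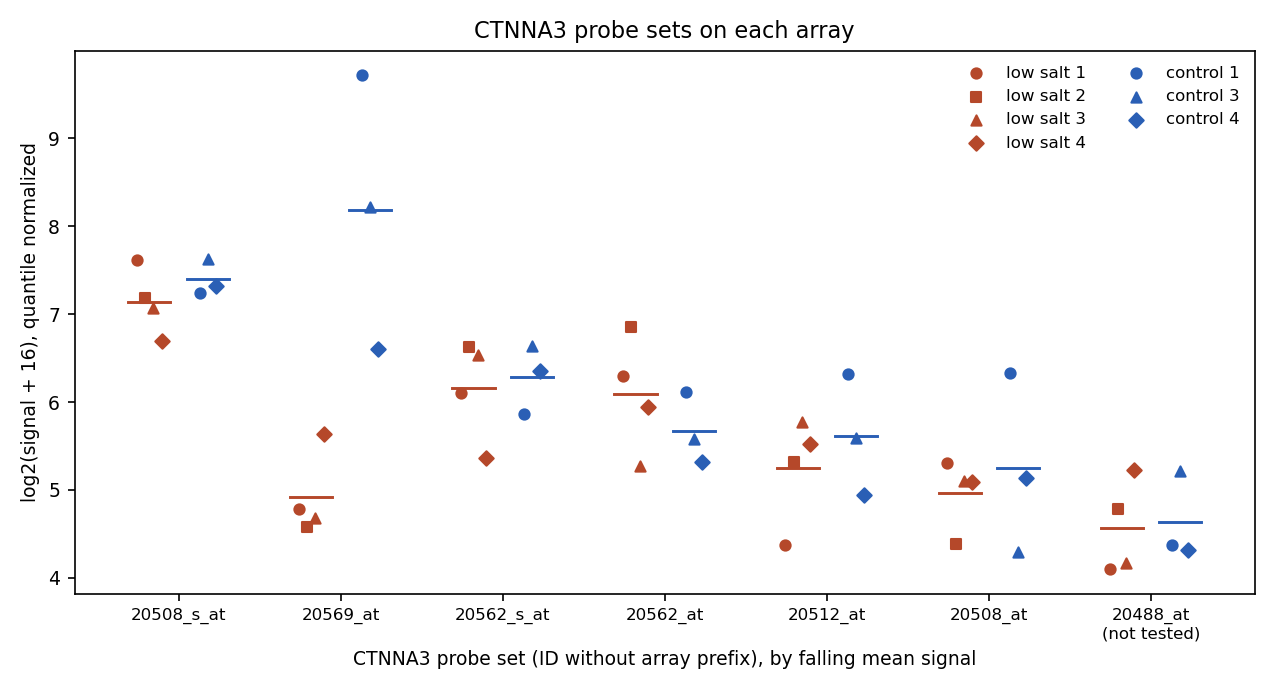
Signal of the 7 CTNNA3 probe sets on each array as log2(signal + 16) after quantile normalization, low salt in red at the left and control in blue at the right of each pair, with short lines at the group means. The low-salt samples of 20569_at sit between 4.57 and 5.64, below all controls at 6.61 to 9.71, while the groups of the other 6 overlap.

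As a description, the size of the CfaAffx.20569.1.S1_at difference and its place past the adjusted threshold depended on single arrays and on settings. Its direction did not turn under any of the 15 alternatives fitted with limma, and hardly could, as every low-salt value lay below every control value. With 1 array left out in turn, its difference ran from -4.12 (without control 4) to -2.49 (without control 1). It was past the threshold in 2 of the 7 such fits, those without low-salt 3 and without control 4, and not without low-salt 1, 2 or 4 or control 1 or 3. Since these values chose the gene, nothing is read from these calls or from the kept direction. In the same plot of settings the other CTNNA3 probe sets ranged between -0.76 (CfaAffx.20508.1.S1_at) and 0.70 (CfaAffx.20562.1.S1_at).

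**Figure D2:**
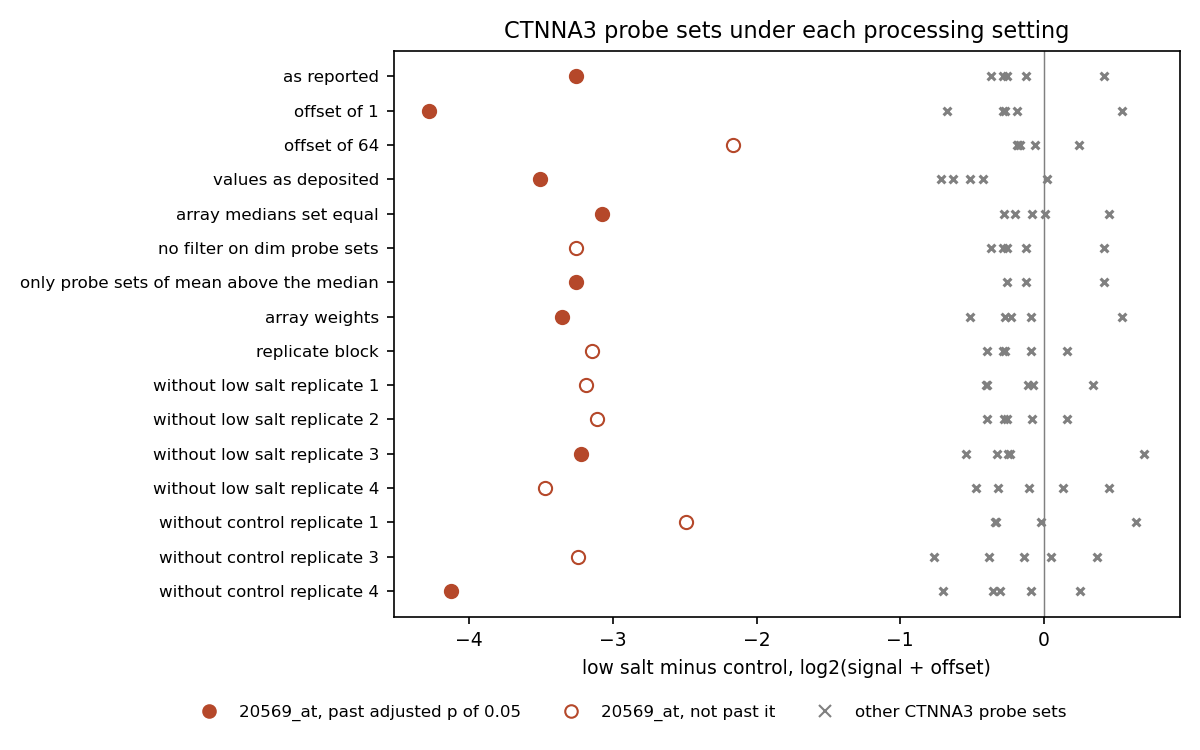
Difference of low salt minus control for the CTNNA3 probe sets under each processing setting, with 20569_at as circles (filled where past an adjusted p of 0.05, open where not) and the others tested in that setting as grey crosses. The circles lie between -4.28 and -2.16, and are open with an offset of 64, with no filter, with the replicate block, without low-salt 1, 2 or 4 and without control 1 or 3.

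The probe sets whose profile over the 7 arrays was most like that of CfaAffx.20569.1.S1_at belonged to EFCAB5, HTR4, OGA, EIF1AX and TNFSF4, by the root mean square difference of values centred on each probe set's own mean. This distance was 0.31 for EFCAB5, 0.38 for HTR4, 0.39 for OGA, 0.42 for EIF1AX and 0.44 for TNFSF4, where the CTNNA3 values themselves had a root mean square of 1.84. No tested junction probe set came nearer than 1.57, the distance of CTNNA3's own CfaAffx.20512.1.S1_at. The choice by this distance fixed the rest of their pattern, in which control 1 was the highest array and low salt lay below every control, with differences between -3.57 (EFCAB5) and -2.69 (OGA). Other tested probe sets of HTR4, OGA, EIF1AX and TNFSF4, 7 in all, differed by between -0.21 and 0.39. Control 1 was the highest and control 4 the lowest control in 41 of the 88 lower probe sets past the adjusted threshold (46.6%), and in 19% of all tested. The median SD among controls was 0.58 over these 88 and 0.40 over all tested, against 1.55 for CfaAffx.20569.1.S1_at. Whether this shared order of the controls has a part in the CTNNA3 difference was not tested.

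**Figure D3:**
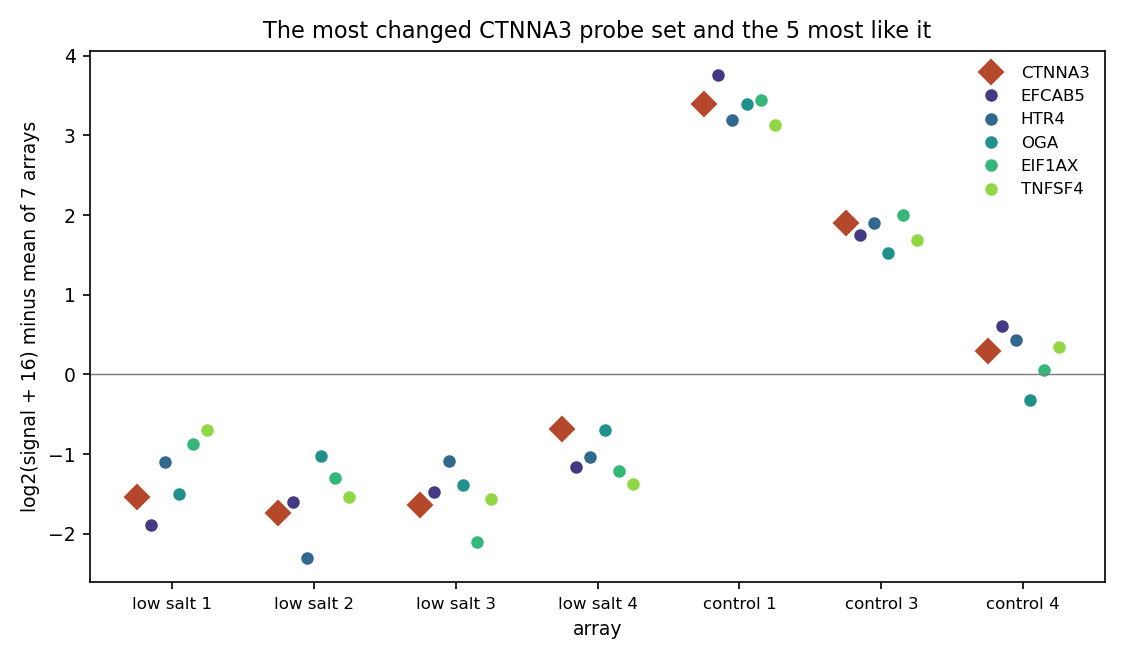
Log2(signal + 16) of CTNNA3 CfaAffx.20569.1.S1_at (red diamonds) and of the 5 genes nearest to it (circles), each centred on its mean over the 7 arrays, low salt at the left and control at the right. CTNNA3 stands at 3.40, 1.901 and 0.29 in controls 1, 3 and 4, and the other 5 follow the same order of controls.

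αE-catenin, encoded by CTNNA1, is the widely expressed α-catenin and works beside αT-catenin at the disc. Its bright probe set Cfa.1893.1.A1_at read 11.88, 12.36, 11.84 and 12.42 in low salt and 12.18, 12.34 and 12.09 in controls. The low-salt samples lay on both sides of the controls, with a difference of -0.08 ± 0.16 (SE, 95% interval -0.41 to 0.26, limma adjusted p = 0.899). CfaAffx.2878.1.S1_s_at differed by 0.37 and Cfa.18139.1.S1_s_at by 0.16, with overlap in both. With array medians made equal, the bright CTNNA1 probe set differed by 0.42 ± 0.43 (SE), so both its sign and its narrow interval depended on the scaling.

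β-Catenin, encoded by CTNNB1, ties cadherins to α-catenin and also carries the Wnt signal to the nucleus. Its bright probe set Cfa.415.1.S1_at read 13.15, 13.23, 13.30 and 13.34 in low salt and 13.25, 13.14 and 13.35 in controls. The 7 arrays lay within a narrow band, with means of 13.26 ± 0.08 in low salt (SD, n = 4) and 13.25 ± 0.11 in controls (SD, n = 3). The difference was 0.01 ± 0.10 (SE, 95% interval -0.20 to 0.22, limma adjusted p = 0.984). The dimmer CfaAffx.8762.1.S1_s_at differed by 0.23 ± 0.29 (SE).

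Plakoglobin, encoded by JUP, is the close relative of β-catenin that serves both adherens junctions and desmosomes. Its probe set Cfa.10299.1.A1_at read 6.85, 7.05, 6.99 and 7.30 in low salt and 6.65, 6.53 and 6.70 in controls. All 4 low-salt values lay above all 3 controls, with a gap of 0.14 between the nearest arrays. The means were 7.05 ± 0.19 in low salt (SD, n = 4) and 6.63 ± 0.09 in controls (SD, n = 3), and the difference of 0.42 ± 0.26 (SE) did not pass (limma adjusted p = 0.588). It stayed above 0 in all 15 alternatives, between 0.18 on the deposited scale and 0.61 once array medians were made equal. With groups that did not overlap after quantile normalization, as in 10.8% of all tested, it hardly could turn in fits on that scale. Nothing is read from the kept sign. In the deposited intensity the groups did overlap, at 85.3, 104, 126 and 128 in low salt and 99.8, 75.2 and 114 in controls. The other JUP probe sets, CfaAffx.24382.1.S1_at and Cfa.17367.1.S1_s_at, were too dim to be tested and differed by -0.16 and -0.10.

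N-cadherin, encoded by CDH2, is the adherens cadherin of heart muscle, and its bright probe set varied little. CfaAffx.27747.1.S1_at read 13.21, 13.12, 13.09 and 13.13 in low salt and 13.10, 13.15 and 13.06 in controls. The groups overlapped, with a difference of 0.03 ± 0.09 (SE, 95% interval -0.16 to 0.23, limma adjusted p = 0.933). The dim Cfa.13125.1.A1_a_at of CDH2 read 6.26, 5.83, 5.48 and 5.55 in low salt and 5.92, 6.56 and 6.56 in controls. It differed by -0.57 ± 0.33 (SE, 95% interval -1.27 to 0.14, limma adjusted p = 0.56), with low-salt 1 inside the range of the controls.

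Desmoglein 2 (DSG2) and desmocollin 2 (DSC2) are the desmosomal cadherins of the heart. The tested DSG2 probe set CfaAffx.27660.1.S1_at read 5.27, 5.28, 5.26 and 5.11 in low salt and 4.63, 4.66 and 5.65 in controls. Its low-salt values lay between the controls, and all 7 were dim, so the difference of 0.25 ± 0.38 (SE) bounds little. The other 3 DSG2 probe sets were too dim to be tested and differed by 0.01, -0.09 and 0.36. The DSC2 probe set Cfa.3718.1.S1_s_at read 8.60, 8.27, 8.29 and 7.76 in low salt and 8.27, 8.06 and 8.29 in controls, with a difference of 0.02 ± 0.24 (SE, limma adjusted p = 0.987). The low-salt samples of DSC2 spread to both sides of the controls.

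Desmoplakin, encoded by DSP, connects the desmosome to desmin filaments, and plakophilin 2 (PKP2) organises the plaque and also meets the gap junction. The DSP probe set CfaAffx.15045.1.S1_at read 7.28, 7.16, 7.26 and 7.55 in low salt and 6.995, 7.11 and 7.38 in controls, overlapping, with a difference of 0.15 ± 0.25 (SE). The PKP2 probe set CfaAffx.16402.1.S1_s_at read 8.0, 8.51, 7.82 and 7.71 in low salt and 7.73, 7.55 and 7.78 in controls. Here low-salt 4 lay within the controls and the other low-salt samples above them, and the difference of 0.32 ± 0.25 (SE) did not pass (limma adjusted p = 0.669).

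**Figure D4:**
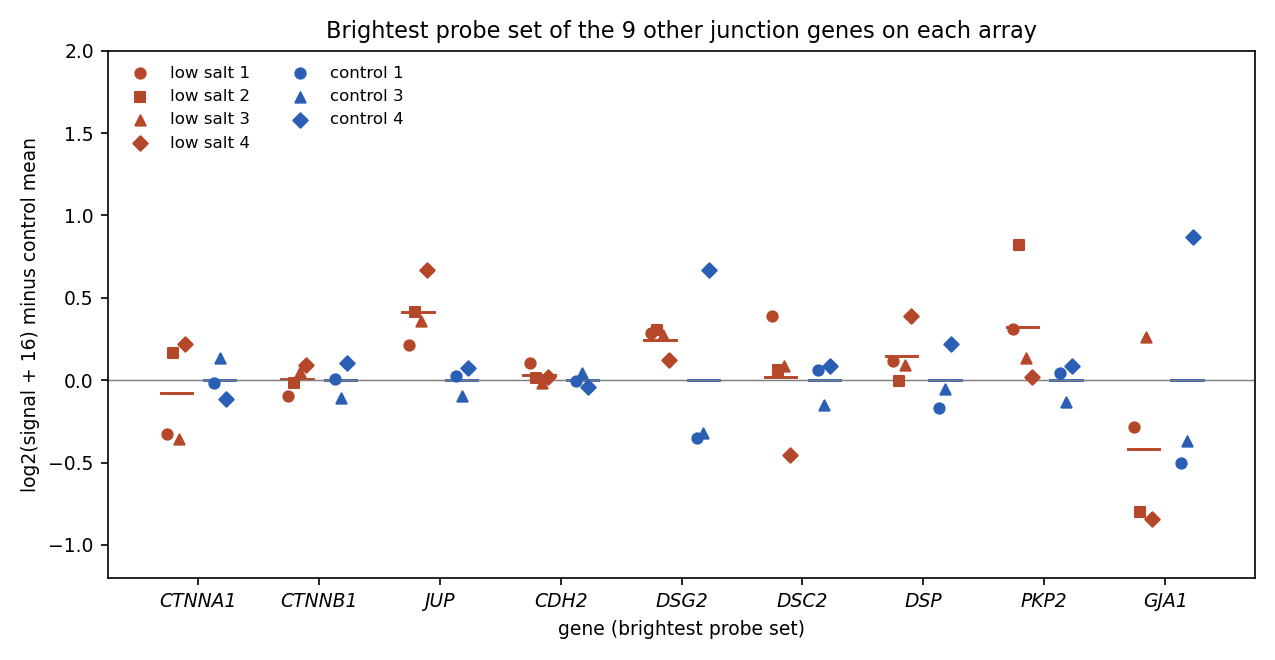
Brightest probe set of each of the other 9 genes on each array as log2(signal + 16) minus the mean of the controls, low salt in red at the left and control in blue at the right, with lines at the group means. The low-salt values of JUP lie above its controls, those of CTNNB1 and CDH2 lie in a narrow band around 0, and control 4 stands highest in GJA1.

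Connexin 43, encoded by GJA1, is the main gap junction channel of the working ventricle, and both of its probe sets had differences below 0. Cfa.119.1.S1_at read 7.08, 6.56, 7.63 and 6.52 in low salt and 6.86, 6.995 and 8.23 in controls. CfaAffx.2344.1.S1_s_at read 6.88, 6.63, 7.19 and 6.92 in low salt and 7.48, 6.75 and 7.995 in controls. In both probe sets control 4 was the highest array, low-salt 3 was the highest low-salt sample, and the groups overlapped. The differences were -0.42 ± 0.38 (SE) and -0.50 ± 0.31 (SE), with limma adjusted p of 0.721 and 0.588. Without control 4 they became 0.02 and -0.22, so these differences rest in good part on that array.

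Over the 14 tested probe sets of the 9 genes without CTNNA3, differences ran from -0.57 to 0.42, with 10 above and 4 below 0. Their median was 0.09, against 0.04 over all 28616 tested, and the smallest adjusted p was 0.56. With quantile normalization, in 9 of the 14 the 95% interval lay within 1 of 0 on both sides, and over all 14 the bounds reached from -1.27 to 1.17. With values as deposited 6 of the 14 were above 0 (median -0.03, where all tested probe sets had a median of -0.18), and with array medians set equal 11 were (median 0.40, against 0.26). A common direction of the 14 therefore depended on the scaling, and so did the narrow intervals of the bright probe sets. With equal array medians, CTNNB1 Cfa.415.1.S1_at differed by 0.32 ± 0.41 (SE) and CDH2 CfaAffx.27747.1.S1_at by 0.39 ± 0.42 (SE). Bulk RNA cannot tell fewer cells of a type from less RNA per cell, and no protein was measured.

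**Figure D5:**
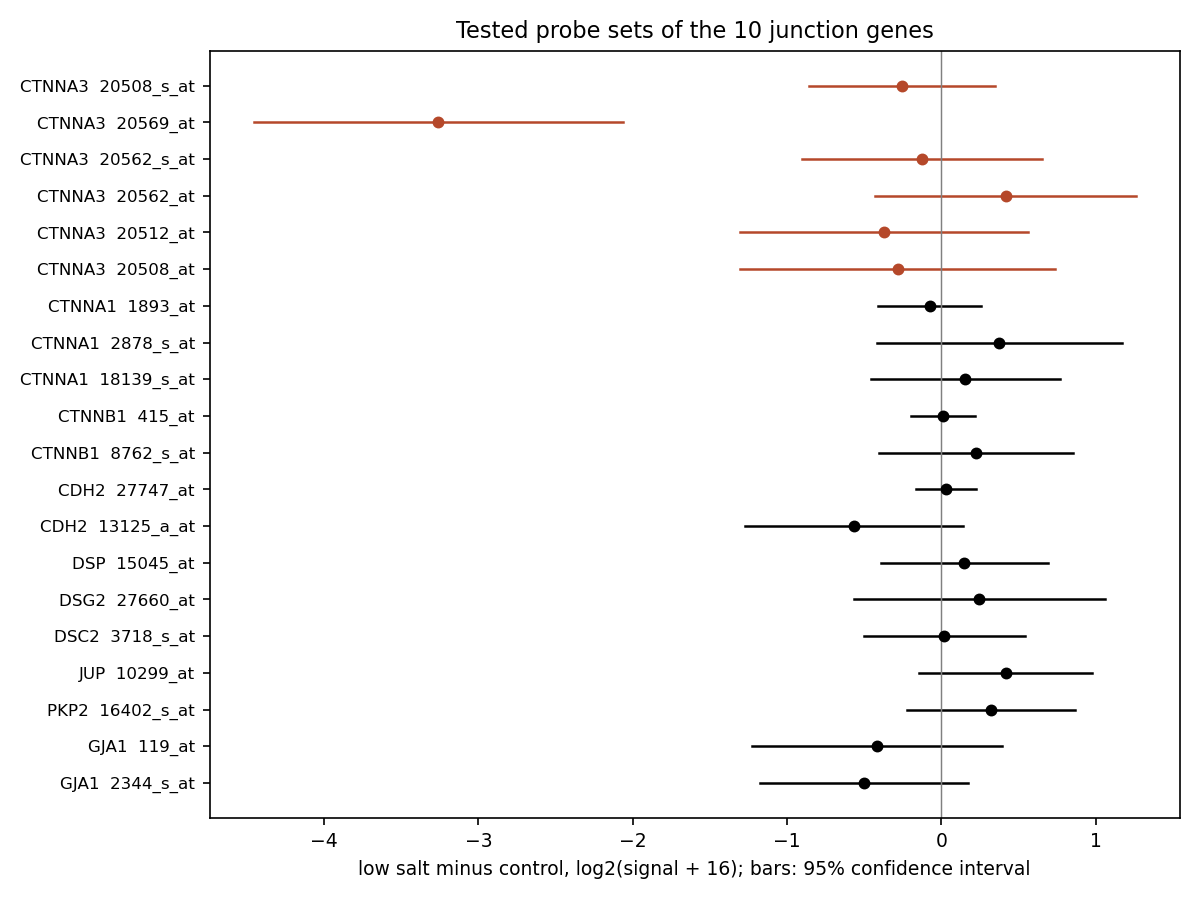
Low salt minus control on the log2(signal + 16) scale for the 20 tested probe sets, points with 95% confidence intervals from limma, CTNNA3 in red and the other 9 genes in black. CTNNA3 20569_at lies at -3.26, and the intervals of the other 19 include 0.

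Markers of the cell types in the ventricle were read beside these genes, each through the brightest probe set of its gene. Of 15 cardiomyocyte markers 13 were named on the array and tested, their differences had a median of 0.01 and 0 passed the adjusted threshold by limma (1 higher and 0 lower at an unadjusted p under 0.05). Their summed deposited intensity ranged from 90837 to 122826 in low salt and from 91444 to 142732 in controls. Fibroblast markers (9 tested) had a median of 0.15 and endothelial markers (10 tested) of -0.13, with 0 in either list at an unadjusted p under 0.05. These medians moved with the scaling, and on the deposited scale were -0.11, -0.01 and -0.14 for cardiomyocytes, fibroblasts and endothelium, where equal array medians gave 0.32, 0.43 and 0.29. Smooth muscle and pericyte markers (10 tested) had a median of -0.01, with 2 higher at an unadjusted p under 0.05, and macrophage markers (10 tested) 0.29, also with 2 higher. Over all probe sets tested that level was reached by 11%, beside which counts of 1 or 2 in lists of this size are read as no result. Of the 10 macrophage markers 9 were above and 1 below 0. Their median was 0.22 on the deposited scale and 0.65 with equal array medians. Whether the macrophage list differs from the whole array was not tested. Epithelial and mesothelial markers were dim, with a summed intensity of 133.7 to 227 in low salt and 174 to 360 in controls over 10 genes. The 6 of them tested had a median of 0.02, with 3 above and 3 below 0. That median was -0.34 on the deposited scale and 0.09 with equal array medians. E-cadherin (CDH1) and keratin 8 (KRT8), which define epithelium, had median intensities of 4.81 and 2.94 in low salt and 3.49 and 1.72 in controls. Of the 5 atrial markers tested 2 were above and 3 below 0. Their median was -0.19, with -0.25 on the deposited scale and 0.19 with equal array medians. The light chain MYL4 (-2.14 ± 0.65, SE) and NR2F2 (-0.75 ± 0.22, SE) were lower at an unadjusted p under 0.05, with limma adjusted p of 0.258 and 0.248. Fat and blood markers (4 tested) had none at that level. The part of these marker differences in the CTNNA3 and GJA1 values was not tested.

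Partner genes of the disc were taken from lists drawn up from general knowledge of the junction, and their counts at an unadjusted p under 0.05 are likewise set beside the 11% of all probe sets tested. Of 17 adherens and cytoskeletal partners 13 were tested, 0 passed by limma, and 1 higher and 1 lower had an unadjusted p under 0.05. These were LDB3, which binds α-actinin at the Z-disc (0.77 ± 0.30, SE, adjusted p = 0.381), and α-actinin 2, ACTN2 (-0.27 ± 0.12, SE, adjusted p = 0.441), whose other probe set differed by 0.35. Of 17 gap junction and channel partners 9 were tested and 0 passed, with the anchoring protein ankyrin G (ANK3, 0.30 ± 0.12, SE) at an unadjusted p under 0.05. The other tested ANK3 probe sets differed by between -0.33 and 0.70. The scaffold TJP1, which binds connexin 43, differed by -0.08 ± 0.12 (SE).

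The intermediate filament and arrhythmogenic cardiomyopathy partners had 9 of 11 genes tested and 0 passed by limma. Desmin (DES), the filament that desmoplakin holds, differed by 0.75 ± 0.27 (SE, adjusted p = 0.339), and its other probe set by 0.77. The list's median difference was 0.25 with quantile normalization, 0.09 on the deposited scale and 0.52 with equal array medians. All tested probe sets had medians of 0.04, -0.18 and 0.26 in the same order. Of the 9 genes 9, 6 and 9 were above 0, and whether the list differs from the whole array was not tested. The brightest probe set of TMEM43, a nuclear membrane protein mutated in human arrhythmogenic cardiomyopathy, differed by 0.25 ± 0.37 (SE). Its other tested one, looked at after its value was seen, had means of 6.68 in low salt and 4.46 in controls. The difference of 2.22 ± 0.36 (SE) is given as a description. This probe set was past the adjusted threshold, but was tested through its low-salt values, its control mean being under the limit. Nothing is read from this, and the probe sets of this gene also did not behave alike.

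Regulators and targets of β-catenin were listed because CTNNB1 and JUP also act in Wnt signalling. Of 26 regulators 17 were tested and 0 passed by limma. An unadjusted p under 0.05, reached by 11% of all probe sets tested, was found for 0 higher and 2 lower. The 2 lower were the coactivators BCL9L, whose other probe set differed by -0.61, and BCL9 (-0.55 ± 0.25, SE). BCL9L had means of 4.70 in low salt and 6.83 in controls (-2.13 ± 0.43, SE, adjusted p = 0.0613), and it passed the brightness limit only through the controls. Of 15 target genes 10 were tested and 0 passed by limma, with MYC higher and RNF43, a ligase that limits Wnt receptors, lower at an unadjusted p under 0.05. Both were dim and passed the brightness limit only through their higher group, MYC with means of 5.70 in low salt and 4.61 in controls (adjusted p = 0.321), RNF43 with 4.57 in low salt and 5.64 in controls (adjusted p = 0.373). AXIN2, a feedback inhibitor and common readout of this pathway, differed by 0.11 ± 0.27 (SE, limma adjusted p = 0.918).

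In the dog gene table LRRTM3 lies inside CTNNA3 and LRRTM2 inside CTNNA1, both coding for synaptic adhesion proteins. The single LRRTM3 probe set differed by 0.19 ± 0.47 (SE) and that of LRRTM2 by -0.86 ± 0.42 (SE, limma adjusted p = 0.478). LRRTM3 was dim in both groups, with means of 5.16 in low salt and 4.97 in controls. LRRTM2 had means of 4.92 in low salt and 5.78 in controls and passed the brightness limit through the controls.

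Signal ratios between the ends of 2 control transcripts were read as a measure of RNA integrity. The ratios of the 2 GAPDH pairs were higher in every control than in every low-salt sample, while those of the 2 actin pairs overlapped. The 3′ over 5′ ratio of GAPDH signals, a sign of RNA breakdown when high, was 2.27 ± 0.17 in low salt (SD, n = 4) and 2.58 ± 0.18 in controls (SD, n = 3), with an exact two-sided permutation p of 0.0571, the smallest that 35 splits allow. The second GAPDH pair gave 17.7 ± 3.46 in low salt and 29.3 ± 10.0 in controls (same exact p), with control 1 at 40.9, the array where CfaAffx.20569.1.S1_at was also highest. Its difference of -11.6 became -5.87 without control 1. The actin ratios overlapped between the groups, with 0.763 ± 0.374 in low salt and 0.957 ± 0.241 in controls for the first pair (exact permutation p = 0.4). The second actin pair ran the other way, with 2357 ± 1559 in low salt and 1475 ± 1928 in controls (exact permutation p = 0.457). Its single arrays were widely spread, from 257 (control 1) to 4330 (low-salt 3). The part of RNA integrity in the values of the junction genes was not tested.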

How the data were processed

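Left ventricle RNA of 4 low-salt and 3 control dog samples was read on 1-colour Affymetrix arrays, and the groups and numbers come from the sample titles. What was deposited is 1 linear-scale intensity per probe set and array, made with GCOS per the submitters' processing notes. The sources used here give neither its version nor its summary method. Each array has a 2% trimmed mean of about 150.05, while array medians of log2(value + 16) differed by up to 0.93. From these, log2(value + 16) was quantile normalized over the 42924 probe sets left after the 111 array-maker controls. The dimmest 33.3% by mean over all arrays were left out, and 28616 were tested with limma 3.58.1 in R 4.3.3 (eBayes with trend, no covariates, Benjamini-Hochberg over all). The fit was tested on simulated data.

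Symbols come from the platform annotation, and all 26 junction probe sets matched the gene table of UU_Cfam_GSD_1.0 by gene number. The genes and lists were chosen with earlier results of these data known. Named were all 10 genes with every probe set. Per-array values are given for CTNNA3's tested probe sets and for each other gene's brightest one, plus any with an unadjusted p under 0.05 or a difference of at least 1. The second probe sets of CDH2 and GJA1 were added after their values were seen. Partner and marker lists give up to 3 genes of smallest p through their brightest probe set, and TMEM43, TJP1, AXIN2, CDH1, KRT8 and the LRRTM genes were named for their roles after their values were seen. The 5 genes nearest to CTNNA3 were named by distance. Nothing states that same-numbered samples of the 2 groups are pairs, so they were not treated as such. Their deviations had correlations of 0.07, -0.26 and -0.18 for numbers 1, 3 and 4. Low-salt 3 and control 4 had 0.43, and these correlations cannot exclude a pairing. The alternatives were other offsets, scalings, filters, array weights, a replicate block, the methods' t-test (without the variance stabilization that the design text also names) and leaving out each array. No chromosome positions or sequences are given.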

Additional observations from a re-analysis of the deposited data

Results flagged for a closer look

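In 3 of the 26 junction probe sets 1 low-salt sample stood apart from the other 3, where chance flags about 1 group in 20; groups of 3 controls were not examined. For CTNNB1 CfaAffx.8762.1.S1_s_at, low-salt 4 was highest at 8.43, above 7.70, 7.72 and 7.79, a gap of 0.871 of the group's range. For DSG2 CfaAffx.27660.1.S1_at, low-salt 4 was lowest at 5.11, below 5.26, 5.27 and 5.28 (gap ratio 0.839), within a range that is narrow and dim. For the untested DSG2 CfaAffx.27657.1.S1_at, low-salt 2 was highest at 5.86, above 4.20, 4.30 and 4.39 (gap ratio 0.883).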

How the results depend on the processing

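The 1 junction probe set past the adjusted threshold, CTNNA3 CfaAffx.20569.1.S1_at, became 0 with an offset of 64, with no filter, with the replicate block and by the methods' t-test, and ran from 0 to 1 with 1 array left out. Its difference of -3.26 became -2.16 with an offset of 64, and leaving out 1 array gave -4.12 to -2.49. The 99 probe sets past it over the whole array became 39 with an offset of 1, 165 as deposited, 27 with no filter, 177 with array weights, 27 with the replicate block and 4 by the methods' t-test, and 21 to 290 with 1 array left out. The replicate block, fitted although nothing states that the numbers pair the samples, gave -3.14 for CfaAffx.20569.1.S1_at. The design text's threshold was taken as an unadjusted p of at most 0.05 with a 2-fold difference. At it the methods' t-test passed 871 of 28615 probe sets and limma 1260 of 28616. By either test 1 of the 20 tested junction probe sets passed, CTNNA3 CfaAffx.20569.1.S1_at, whose values chose the gene, so nothing is read from this. The other 19 tested junction probe sets passed in 0 alternatives, and 10 of them kept their sign in all that tested them. The causes were not tested. All GAPDH and actin differences kept their direction with 1 array left out, while the second GAPDH pair ran from -14.9 to -5.87, the first actin pair from -0.33 to -0.06 and the second from 223 to 1992. With 3 and 4 samples, small differences of dim probe sets such as DSG2 could not be resolved.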
